A study of Jatropha curcas with 10 samples.

Results

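The transcripts described here are 172 gene IDs of the form Novel00163, which stand beside the locus tags among 28447 IDs in RNA sequencing tables. The tissue was the inflorescence meristem of Jatropha curcas, a woody plant grown for seed oil. They were chosen by level: a mean of at least 20 RPKM over all 10 libraries, leaving out the 100 IDs of highest mean. RPKM counts reads per kilobase of transcript, scaled to a fixed number of reads per library. Of the 1275 IDs of this form in the tables, 745 had a mean of at least 1 but under 20 RPKM and 2 stood among the top 100. The other 27172 IDs are locus tags starting with JCGZ, and 8263 of these met the same limits on level, so the 172 made up 2.04% of the 8435 IDs in that range.

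The plants were 3 years old, and all 10 libraries, those of 0 h included, carry a label of time after treatment with GA3. The 5 groups were 0, 6, 12, 24 and 48 h after GA3, with 2 libraries each. The labels give neither the dose nor the way of applying GA3, name no cultivar and list no untreated plants at 6 to 48 h. Treatment therefore cannot be told apart from elapsed time or from the hour of sampling. No label states whether both libraries of a time, called library 1 and library 2 after their titles, came from separate plants, so every p-value below measures only the spread between libraries, which may be technical. The tables name no genes, so the labelled tissue could not be set against meristem markers and was not tested. In bulk tissue, fewer cells of a type and less RNA per cell cannot be told apart.

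Gibberellins are plant hormones that drive stem growth and take part in flowering and in the growth of floral organs. They bind the GID1 receptor, which leads to the breakdown of DELLA proteins, repressors of growth genes. A transcript outside the locus tags of an annotation may be a coding gene that the annotation missed, a non-coding RNA, an untranslated stretch of a known gene or a copy of a repeat, and a level alone does not say which. How these transcripts were defined is not stated in the labels, and 0 of all 28447 IDs, locus tags included, matched the RefSeq gene table for this species (assembly XTBG_Jcur_1.0), so the 172 are given by ID, with no name, position or sequence.

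Most of these transcripts were of moderate level. The median of their means was 41.0 RPKM, with quartiles of 27.1 and 90.5. In all, 97 had a mean under 50 RPKM, 34 lay between 50 and 100, 37 between 100 and 500, and 4 at 500 or more. These values chose the transcripts and are given as a description. At the lower limit, Novel00190, Novel00694 and Novel00760 were just inside with means of 20.3, 20.1 and 20.03 RPKM, and Novel01170, Novel00671 and Novel01128 just outside with 19.9, 19.5 and 19.4. At the upper limit the gap was wide, because the 100th ID had a mean of 1472 RPKM: Novel01040 was the first inside at 769 RPKM, while Novel01008 (2227 RPKM) and Novel00683 (7512 RPKM) were left out. A mean can rest on a few libraries, but 154 of the 172 had at least 10 RPKM in each of the 10 libraries. By the median over libraries in place of the mean, 164 IDs would have been chosen, 162 of them the same.

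The lengths set these transcripts apart from the locus tags. Recovered from the values, they ran from 233 bases (Novel00301) and 286 bases (Novel00743) to 5307 (Novel00477) and 7096 bases (Novel00471), with a median of 898.5. Of the 172 lengths, 57 (33.1%) were multiples of 3, against 100% of the 8263 locus tags in the same range of level, whose median was 966 bases. In the 745 IDs of the same form and lower level the share was 35.2%, so it was not particular to the 172. The locus tag lengths are read here as coding lengths without untranslated regions, which was not tested against an annotation. Levels per kilobase of the 2 kinds of ID may therefore refer to different parts of a transcript. The values rested on a median of 799.5 reads each, in libraries of 15934189 to 24448219 reads. Of the 1720 values, 8 rested on under 30 reads, in 4 transcripts, and 3 were at 0, all of them of Novel00301.

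The 5 transcripts of highest mean are given as examples and do not stand for the whole group. Novel01040 (1115 bases) had 622 and 728 RPKM at 0 h in libraries 1 and 2, 809 and 771 (6 h), 1130 and 583 (12 h), 1103 and 609 (24 h), and 938 and 392 (48 h). Its 2 libraries were close at 0 and 6 h and further apart at 12, 24 and 48 h, each time with library 1 above. Novel00119 (591 bases) had 647 and 923 RPKM at 0 h, 732 and 762 (6 h), 1175 and 488 (12 h), 1167 and 570 (24 h), and 719 and 479 (48 h). Novel00517 (835 bases) went the same way, from 476 and 676 RPKM at 0 h over 636 and 768 at 6 h to 905 and 568 (12 h), 832 and 490 (24 h) and 666 and 424 (48 h). Novel00923 (901 bases) had 357 and 518 RPKM at 0 h, 614 and 564 (6 h), 606 and 321 (12 h), 768 and 415 (24 h), and 518 and 256 (48 h). In all 4 of these, library 2 was the higher at 0 h and library 1 the higher from 12 h on. Novel01265 (719 bases) differed, with 833 and 590 RPKM at 0 h, 992 and 569 (6 h), 1048 and 454 (12 h), 691 and 869 (24 h), and 411 and 323 (48 h). Its 2 lowest libraries were those of 48 h, and library 1 was the higher except at 24 h. None of the 5 passed the test at any time (limma adjusted p of at least 0.84 for each, in all 4 comparisons with 0 h).

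**Figure D1:**
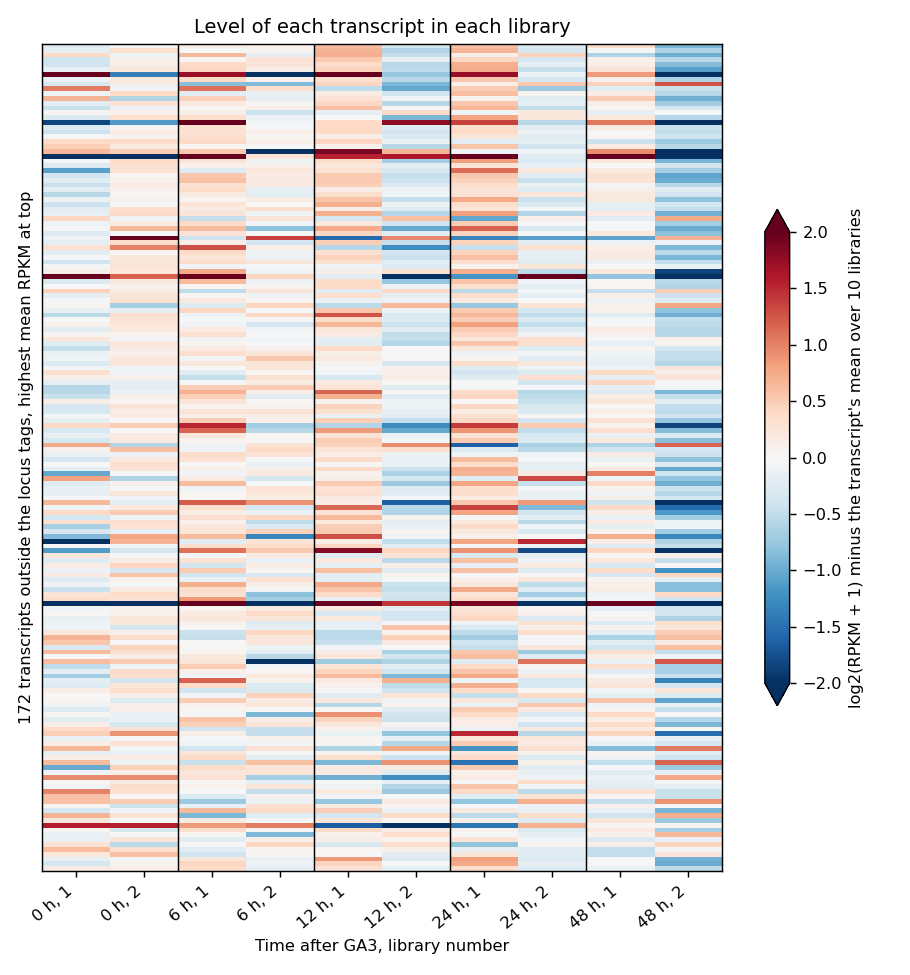
Level of each of the 172 transcripts (rows, highest mean at the top) in each of the 10 libraries (columns, by time after GA3 and library number), as log2(RPKM + 1) minus the transcript's mean over the libraries, with the colours ending at 2 in either direction. Neighbouring columns of 1 time differ in colour from 12 h on, and the median of a column was 0.34 in library 1 of 24 h and -0.47 in library 2 of 48 h.

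The spread between the 2 libraries of a time was wider in these transcripts than in locus tags of the same level. Their median absolute difference between library 1 and library 2 was 0.34 (log2) at 0 h and 0.33 at 6 h. It then was 0.60 (12 h), 0.59 (24 h) and 0.64 (48 h). For the 8263 locus tags of the same range of level it was 0.25, 0.31, 0.45, 0.44 and 0.40. The number at least 2-fold apart went from 12 (6.98%) at 0 h and 17 (9.88%) at 6 h to 33 (19.2%) at 12 h, 33 (19.2%) at 24 h and 44 (25.6%) at 48 h, against 3.67%, 6.86%, 15.6%, 15.3% and 11.4% of the locus tags. The shares thus lay above those of the locus tags at each time, most of all at 48 h.

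The differences leaned 1 way. At 0 h, 49 of the 172 (28.5%) were higher in library 1 and library 1 minus library 2 had a median of -0.23 (log2). At 6 h, 109 (63.4%) were higher in library 1 with a median of 0.15. At 12, 24 and 48 h, 136 (79.1%), 127 (73.8%) and 132 (76.7%) were higher in library 1, with medians of 0.52, 0.48 and 0.49. In the locus tags of the same level the medians were 0.02, -0.08, 0.00227, -0.04 and 0.06 from 0 to 48 h, so both directions were about equally common there. Taken transcript by transcript, 82 of the 172 (47.7%) were higher in library 1 at all 4 treated times and 18 (10.5%) were higher in library 2 at all 4. The same counts were 2080 (25.2%) and 2471 (29.9%) in the locus tags, and 210 (28.2%) and 124 (16.6%) in the 745 IDs of the same form with a mean of 1 to 20 RPKM. Over all 17403 IDs tested they were 3358 and 6099. Medians in the 745 were 0.07 to 0.15 at the treated times.

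Transcript length moved with this difference in the locus tags and less so in the 172. Locus tags of under 500 bases (1327 IDs) had median differences of 0.55, 0.44 and 0.51 (log2) at 12, 24 and 48 h. Those of 500 to under 1000 bases (2977 IDs) had 0.22, 0.16 and 0.25, those of 1000 to under 1500 bases (2162 IDs) -0.16, -0.20 and -0.09, and those of 1500 or more (1797 IDs) -0.67, -0.60 and -0.49. The 99 of the 172 of 500 to under 1000 bases had 0.55, 0.50 and 0.58, values close to those of the shortest locus tags. The 35 of 1000 to under 1500 bases had 0.52, 0.43 and 0.35, and the 27 of 1500 or more had 0.25, -0.00615 and 0.23, both above the locus tags of like length. The 11 under 500 bases had 0.17, 0.36 and 0.38, a class too small to place. With the length trend of all tested IDs removed from each library, the median differences of the 172 were -0.31 at 0 h and 0.27, 0.51, 0.45 and 0.39 at 6, 12, 24 and 48 h, against -0.08, 0.04, 0.02, 0.03 and 0.02 for the locus tags. The 745 IDs of the same form and lower level then had -0.06 at 0 h and 0.25, 0.31, 0.37 and 0.30 at the treated times, with 63.5% to 74.2% of them higher in library 1, so they leaned the same way as the 172. That trend was drawn over both kinds of length together, which may not measure the same part of a transcript.

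**Figure D2:**
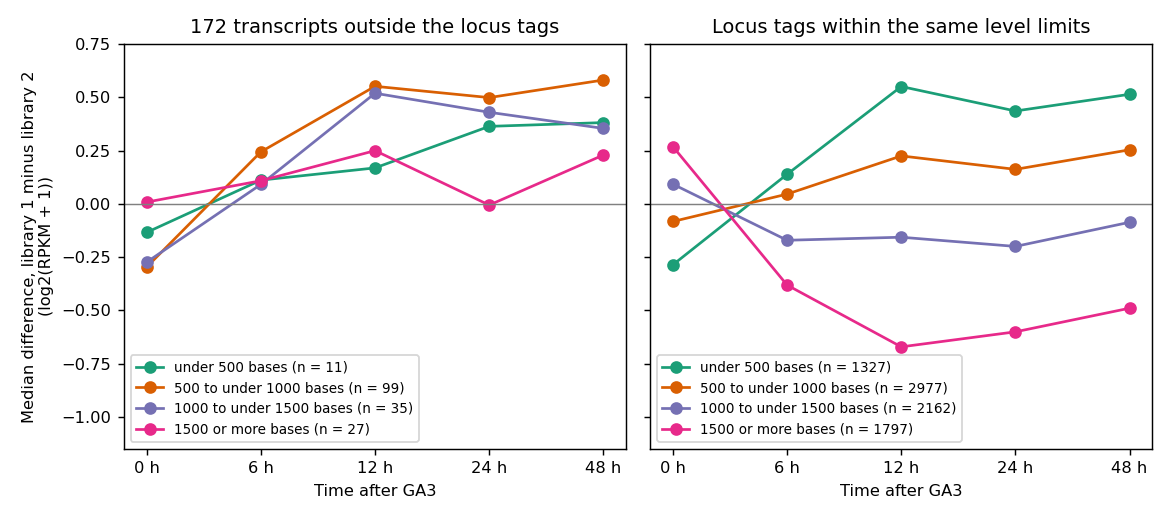
Median difference between library 1 and library 2 of each time (vertical axis, log2(RPKM + 1)) against time after GA3 for 4 classes of length, in the 172 transcripts (left) and in 8263 locus tags within the same limits on level (right). In the locus tags the classes fan out from 0.55 to -0.67 at 12 h, whereas in those of the 172 of 500 to under 1000 and 1000 to under 1500 bases the medians were 0.55 and 0.52.

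The share of all reads that fell on the 172 transcripts showed the same split. It was 1.57% and 1.66% in libraries 1 and 2 of 0 h, 1.86% and 1.50% (6 h), 2.04% and 1.34% (12 h), 1.96% and 1.40% (24 h), and 1.65% and 1.17% (48 h). Library 1 held the larger share at each treated time and the smaller at 0 h. Without Novel00987, whose libraries differed widely at every time, the shares were 1.53% to 1.92% in library 1 and 1.17% to 1.66% in library 2, with the same order at every time.

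A few transcripts were far more uneven than the rest. Novel00987 (654 bases, mean 446 RPKM) had 712 RPKM in library 1 and 63.5 in library 2 of 0 h, 549 and 17.5 (6 h), 1993 and 98.6 (12 h), 564 and 155 (24 h), and 304 and 6.38 (48 h). Library 1 was the higher at all 5 times, by 11.2-, 31.4-, 20.2-, 3.64- and 47.7-fold. Its levels fell into 2 ranges that did not overlap, 304 to 1993 RPKM in the libraries numbered 1 and 6.38 to 155 in those numbered 2. Novel00301 (233 bases) had 0 reads in both libraries of 0 h, which allows up to 0.718 and 0.672 RPKM at 3 reads, for counting error only. Its later levels were 124 and 0 RPKM at 6 h, 59.9 and 19.3 (12 h), 27.0 and 0.176 (24 h), and 65.2 and 0.716 (48 h), from 461 and 0, 288 and 86, 114 and 1, and 279 and 3 reads. It was thus plain in library 1 of each treated time and in library 2 of 12 h alone.

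Novel00460 (536 bases) had a related course, with 6.04 and 11.5 RPKM at 0 h, 634 and 88.0 (6 h), 215 and 226 (12 h), 322 and 61.1 (24 h), and 299 and 2.28 (48 h). Both libraries of 6, 12 and 24 h were above both of 0 h, while library 2 of 48 h was below them. Novel00240 (637 bases), named after its values were seen, had 33.8 and 56.0 RPKM at 0 h, 787 and 119 (6 h), 163 and 429 (12 h), 320 and 83.7 (24 h), and 258 and 8.73 (48 h). In both of these the 2 libraries were within 3-fold of each other at 0 and 12 h and further apart at 6, 24 and 48 h. Neither passed the test at any time. Novel00460 had fitted changes of 4.67 ± 1.87 at 6 h and 4.56 ± 1.87 at 12 h (log2, SE), with limma adjusted p of 0.391 and 0.384. Novel00573 (511 bases) was uneven in another way, with 330 and 71.6 RPKM at 0 h, 125 and 42.1 (6 h), 26.5 and 0.307 (12 h), 13.1 and 134 (24 h), and 17.5 and 5.66 (48 h). Its lowest library, library 2 of 12 h, held 3 reads, and its fitted change at 12 h was -4.69 ± 1.56 (log2, SE; limma adjusted p = 0.262).

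Other transcripts varied little. Novel00068 (1599 bases) had 21.1 and 23.0 RPKM at 0 h, 22.7 and 24.4 (6 h), 23.7 and 20.9 (12 h), 26.9 and 27.0 (24 h), and 22.6 and 20.2 (48 h). Its values all lay between 20.2 and 27.0 RPKM. Novel00593 (819 bases), whose median difference between libraries was the smallest of the 172, had 34.3 and 33.1 RPKM at 0 h, 43.6 and 44.6 (6 h), 46.3 and 29.6 (12 h), 33.3 and 31.1 (24 h), and 28.8 and 24.6 (48 h). Library 1 of 12 h was its highest value, and only at that time were its libraries over 1.5-fold apart. Novel00442 (957 bases) and Novel00787 (946 bases) had the smallest range of the 5 time means, at 0.14 and 0.20 (log2). Novel00442 lay between 111 and 172 RPKM and Novel00787 between 29.7 and 43.0 RPKM in the 10 libraries. The longest transcript, Novel00471, had 44.8 and 45.0 RPKM at 0 h and between 24.0 and 40.6 RPKM in the 8 later libraries.

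**Figure D3:**
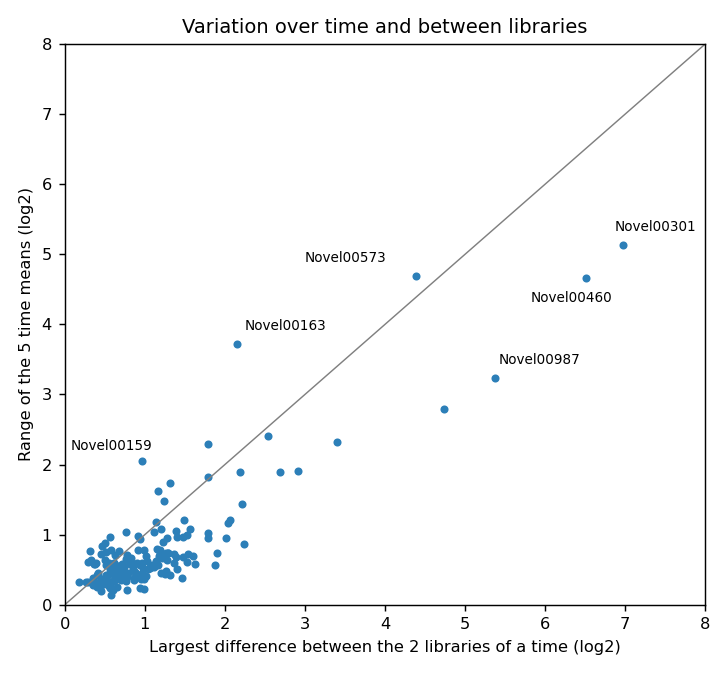
Range of the 5 time means (vertical axis, log2) against the largest difference between the 2 libraries of a time (horizontal axis, log2) for the 172 transcripts, with 6 of them named and the line of equal values drawn. In 34 of the 172 the range over time was the larger, among them Novel00163 and Novel00159, and in Novel00987, Novel00460 and Novel00301 it was the smaller.

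The range of the time means was close in size to the usual difference between 2 libraries. These are unlike measures, since a range over 5 means takes the extremes and a usual difference does not. Their like size is therefore not a test of variation over time. The range of the 5 time means had a median of 0.58 (log2) and was under 2-fold in 144 of the 172 (83.7%), against a median of 0.57 and a share of 79.6% in the locus tags of the same level. The median absolute difference between the libraries of a time had a median of 0.53 over the 172 and of 0.37 over the locus tags. The range exceeded the largest difference between libraries of a time in 34 of 172 (19.8%), against 36.6% of the locus tags. When all 4 later times were tested together (F-test), 0 of the 172 passed, beside 1.32% of the 17403 IDs tested (limma, adjusted p under 0.05). At an unadjusted p under 0.05, 6 of the 172 (3.49%) passed, beside 10.4% of all IDs. The voom fit to recovered reads called 0 as well. Here and below, the share of all IDs that voom called is not given, so its counts were not set against a background.

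At 6 h after GA3 none of the 172 passed the test against 0 h (limma, adjusted p under 0.05), beside 1.13% of all IDs tested. At an unadjusted p under 0.05, 7 of the 172 were past the threshold, beside 11.3% of all IDs. By voom 0 were called, with no share of all IDs given. The median fitted change was 0.10 (log2, quartiles of -0.19 and 0.30), against 0.04 for all IDs, and 162 of the 172 were within 2-fold of 0 h. The smallest p among the higher transcripts was that of Novel00226 (1724 bases), with 33.9 and 45.2 RPKM at 0 h and 72.5 and 72.8 (6 h). Its libraries of 6 h were above all others, which lay between 43.2 and 61.7 RPKM at 12 to 48 h, and its change at 6 h was 0.87 ± 0.24 (log2, SE; limma adjusted p = 0.184). The smallest p among the lower ones was that of Novel00346 (1506 bases), with 30.9 and 28.6 RPKM at 0 h and 17.4 and 16.7 (6 h), with a fitted difference of -0.77 ± 0.23 (limma adjusted p = 0.214). Both libraries of 6 h were its lowest, and the later ones lay between 20.7 and 26.6 RPKM. In 63 of the 172 (36.6%) both libraries of 6 h lay outside those of 0 h, beside 44.2% of all IDs.

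At 12 h, 2 of the 172 fell against 0 h and none rose, beside 1.29% of all IDs that fell and 0.241% that rose (limma, adjusted p under 0.05). The share of 1.16% is close to that of all IDs. Novel00163 (902 bases) had 45.1 and 44.5 RPKM at 0 h, 27.1 and 30.6 (6 h), 3.92 and 1.45 (12 h), 4.71 and 24.3 (24 h), and 14.9 and 15.2 (48 h). The libraries of 12 h were below all others, and no library from 6 h on reached the level of 0 h. Its mean went from 44.8 ± 0.41 RPKM at 0 h to 2.69 ± 1.75 RPKM at 12 h (SD, n = 2 each). It fell by 3.72 ± 0.62 (log2, SE; limma adjusted p = 0.0289), and its 12 h values rested on 73 and 25 reads. Novel00159 (585 bases) had 38.6 and 38.8 RPKM at 0 h, 24.1 and 11.8 (6 h), 9.52 and 7.70 (12 h), 21.8 and 18.2 (24 h), and 18.2 and 33.9 (48 h). The libraries of 12 h were again the lowest and those of 0 h the highest. Between 0 h and 12 h it fell by 2.05 ± 0.39 (log2, SE; limma adjusted p = 0.0471), from 38.7 ± 0.14 to 8.61 ± 1.29 RPKM (SD, n = 2 each).

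Both calls were close to the threshold. By voom on recovered reads the limma adjusted p was 0.0592 for Novel00163 and 0.0705 for Novel00159, and without the filter on low IDs it was 0.0543 and 0.0764. Leaving out either library of 0 h gave 0.227 and 0.19 for Novel00163 and 0.304 and 0.241 for Novel00159, and leaving out library 1 or 2 of 12 h gave 0.0686 and 0.153, and 0.153 and 0.213. Without library 1 or 2 of 6 h the limma adjusted p of Novel00163 was 0.0598 and 0.0596, and without library 1 or 2 of 48 h it was 0.0561 and 0.0552. That of Novel00159 was 0.0588 and 0.0577 without library 1 or 2 of 24 h and 0.057 with each library rescaled by median ratios. The changes themselves stayed between -4.22 and -3.22 (log2) for Novel00163 and between -2.19 and -1.92 for Novel00159 over 16 alternatives, in which the limma adjusted p ran from 0.00338 to 0.227 and from 0.0282 to 0.304.

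Over all 172, the median change at 12 h was -0.02 (log2, quartiles of -0.24 and 0.23), against 0.08 for all IDs and 0.09 for the locus tags of the same level, and 158 of the 172 were within 2-fold of 0 h. Among the higher transcripts the smallest p after Novel00460 was that of Novel00055 (1010 bases), with 27.4 and 33.3 RPKM at 0 h, 44.7 and 48.0 (6 h), 56.1 and 37.4 (12 h), 34.5 and 30.4 (24 h), and 32.3 and 22.0 (48 h). Its change at 12 h was 0.58 ± 0.28 (log2, SE; limma adjusted p = 0.477). At an unadjusted p under 0.05, 6 of the 172 were past the threshold, beside 11.9% of all IDs. Both libraries of 12 h lay outside those of 0 h in 47 of the 172 (27.3%), 18 above (10.5%) and 29 below (16.9%), beside 23.0% and 16.9% of all IDs.

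**Figure D4:**
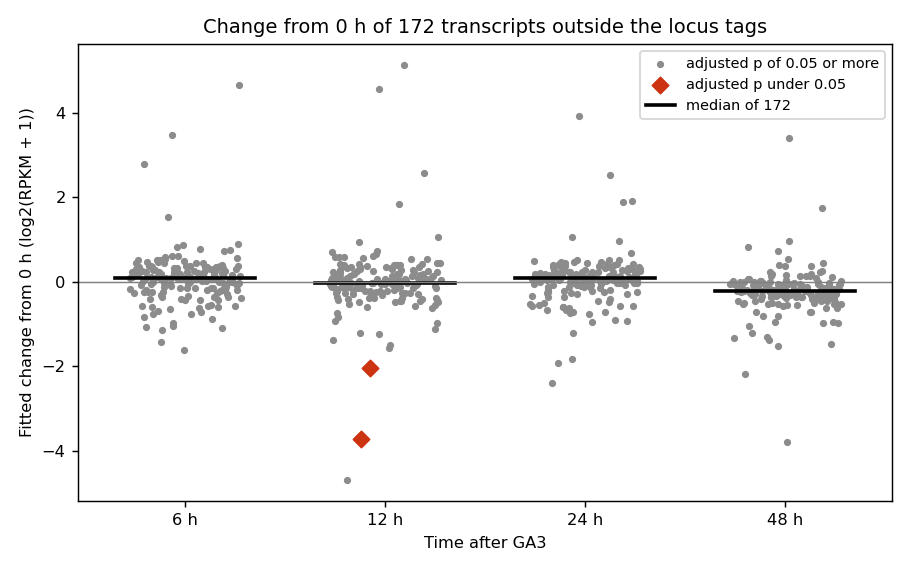
Fitted change from 0 h (vertical axis, log2(RPKM + 1)) of each of the 172 transcripts at 6, 12, 24 and 48 h after GA3 (horizontal axis, points spread sideways for legibility), with the median as a bar and the 2 transcripts with a limma adjusted p under 0.05 as red diamonds. Medians were 0.10, -0.02, 0.08 and -0.22, and both diamonds are at 12 h; the highest point at 12 h is Novel00301, whose 0 h libraries were both at 0, so that its change depends on the pseudocount.

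At 24 h and at 48 h none of the 172 passed the test against 0 h, beside 0% of all IDs tested at either time (limma, adjusted p under 0.05). At an unadjusted p under 0.05, 5 of the 172 were past the threshold at each time, beside 3.30% and 4.56% of all IDs. By voom 0 were called at both times, with no share of all IDs given. At 24 h the median change was 0.08 (log2) while that of all IDs was -0.15, and 110 of the 172 were above 0 h, beside 5796 of the 17403 IDs tested. Rescaling the libraries by median ratios moved the median of all IDs at 24 h from -0.15 to -0.01 and that of the 172 from 0.08 to 0.24; under both the 172 stood above all IDs. Novel01224 (928 bases) had 5.47 and 47.6 RPKM at 0 h and 50.9 and 84.2 (24 h), with 18.8 to 35.3 RPKM between and after. Its 2 libraries of 0 h were 91 and 846 reads, and its change at 24 h was 1.91 ± 0.81 (log2, SE; limma adjusted p = 0.951). Novel01260 (530 bases) had 42.5 and 61.2 RPKM at 0 h, 37.2 and 53.4 (6 h), 48.3 and 50.8 (12 h), 33.0 and 26.9 (24 h), and 30.1 and 31.5 (48 h). All 4 libraries of 24 and 48 h were below the 6 earlier ones, with changes of -0.76 ± 0.27 and -0.71 ± 0.27 (log2, SE; limma adjusted p of 0.951 and 1).

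At 48 h the median change of the 172 was -0.22 (log2, quartiles of -0.39 and -0.05), against -0.02 for all IDs. It was -0.18 in the 745 IDs of the same form and lower level, so the lower median was not particular to the 172. Above 0 h were 30 of the 172, 212 of the 745 and 8216 of the 17403 IDs tested. Novel00999 (928 bases) had 251 and 250 RPKM at 0 h, 250 and 206 (6 h), 259 and 175 (12 h), 164 and 169 (24 h), and 141 and 115 (48 h). Its 4 libraries of 24 and 48 h were the lowest, and its change at 48 h was -0.97 ± 0.26 (log2, SE; limma adjusted p = 0.936). Novel00283 (1259 bases) had 31.5 and 25.1 RPKM at 0 h, 16.8 and 20.3 (6 h), 20.5 and 21.6 (12 h), 17.4 and 17.2 (24 h), and 14.1 and 19.7 (48 h). Every library after 0 h was below both of 0 h, with -0.72 ± 0.25 as its fitted value at 48 h (log2, SE; limma adjusted p = 1). Novel00711 (1726 bases) went the other way, with 270 and 364 RPKM at 0 h, 186 and 181 (6 h), 451 and 180 (12 h), 371 and 490 (24 h), and 466 and 809 (48 h), with 0.97 ± 0.46 as its fitted difference at 48 h (log2, SE; limma adjusted p = 1). Novel00651 (2430 bases) had 17.8 and 36.5 RPKM at 0 h and 75.8 and 28.2 (48 h), so its libraries of the 2 times overlapped. In 38 of the 172 (22.1%) both libraries of 48 h were below both of 0 h and in 6 (3.49%) both were above, beside 17.6% and 12.6% of all IDs. At 24 h the counts were 18 above and 18 below (10.5% each), beside 9.02% and 21.2% of all IDs.

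The change from 0 h was not the same in the libraries numbered 1 and 2, and it turned on which 0 h library was the base. Against the mean of both 0 h libraries, the median change of the 172 in library 1 was 0.14, 0.23, 0.30 and 0.03 (log2) at 6, 12, 24 and 48 h, with 118, 114, 124 and 91 of the 172 above. In library 2 it was 0.03, -0.21, -0.15 and -0.44, with 91, 50, 52 and 31 above. Over all IDs tested the order was the reverse, with -0.03, -0.02, -0.23 and -0.05 in library 1 and 0.12, 0.14, -0.05 and -0.00277 in library 2. Against this same mean, the 745 IDs of the same form and lower level kept the order of the 172, with a narrower gap. They had -0.01, -0.00535, -0.06 and -0.14 in library 1 and -0.03, -0.07, -0.18 and -0.26 in library 2. In the locus tags of the same level, library 1 had the lower median at 6, 12 and 24 h and the higher at 48 h (0.01 against -0.03). Against the 0 h library of the same number the 172 had 0.29, 0.30, 0.41 and 0.11 in library 1 and -0.11, -0.37, -0.26 and -0.61 in library 2. All IDs then had -0.10, -0.09, -0.31 and -0.12, and 0.19, 0.20, 0.02 and 0.06. The 745 had -0.03, -0.07, -0.13 and -0.20, and 0.01, -0.02, -0.13 and -0.23, so they did not keep the order of the 172 at 6 and 12 h. The numbers were not shown to pair 0 h with the treated times. Against the 0 h library of the other number the gap of the 172 was smaller, at 0.03, 0.10, 0.21 and -0.13 in library 1 and 0.16, -0.11, -0.02 and -0.32 in library 2. With that base both medians were above 0 at 6 h and both below 0 at 48 h. In library 2 of 48 h the median was below 0 with each base, and its median deviation from each transcript's mean was -0.47 (log2), with 0.04 in library 1 of 48 h. By the mean of both libraries 97 of the 172 (56.4%) were lowest at 48 h, beside 20.9% of all IDs, 23.2% of the locus tags of the same level and 38.7% of the 745 IDs of the same form and lower level. Within libraries numbered 1 this was so for 23 (13.4%), beside 11.3% of all IDs, and within those numbered 2 for 99 (57.6%), beside 24.7%. Lowest at 0 h were 91 (52.9%) within libraries numbered 1, beside 21.8% of all IDs, and 10 (5.81%) within those numbered 2, beside 32.3%. The low point at 48 h was thus not common to both. The labels do not say what the library number stands for, and its part in the changes from 0 h was not tested beyond these values and the fits with the number as a term.

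**Figure D5:**
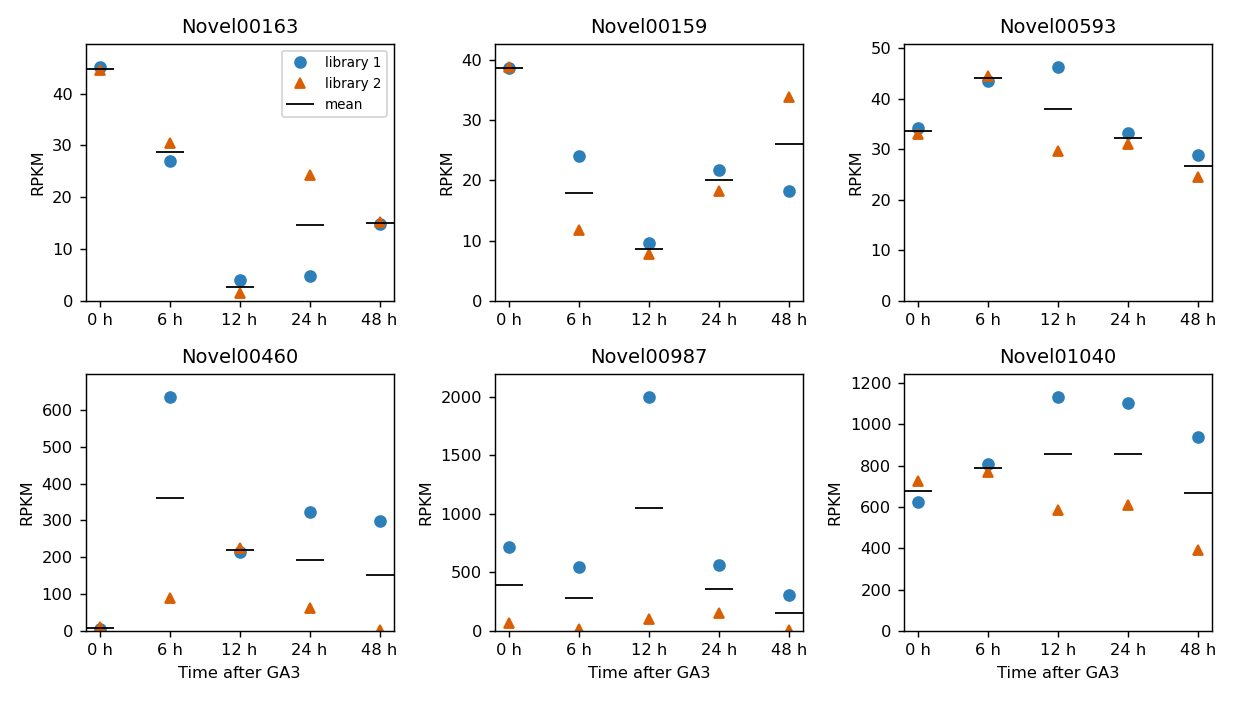
Level in RPKM (vertical axes, each from 0) against time after GA3 in library 1 (circles) and library 2 (triangles) for 6 transcripts, with bars for the mean of the 2 libraries. Novel00163 and Novel00159 were lowest in both libraries of 12 h, Novel00593 had close libraries except at 12 h, and in Novel00987 the libraries numbered 1 lay at 304 to 1993 RPKM and those numbered 2 at 6.38 to 155 RPKM.

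Between neighbouring times, none of the 172 passed the test from 6 h to 12 h, from 12 h to 24 h or from 24 h to 48 h, beside 0.126%, 1.15% and 0% of all IDs (limma, adjusted p under 0.05). At an unadjusted p under 0.05 there were 7, 8 and 5 of the 172, beside 4.90%, 11.7% and 1.89% of all IDs. By voom 0 were called in each, with no share of all IDs given. The lower level of Novel00163 and Novel00159 at 12 h was therefore not shown to differ from their level at 6 h or 24 h, except that Novel00163 was called from 6 h to 12 h when either library of 24 h was left out. Among the 8 treated libraries, the library number taken as a block gave 4 calls from 12 h to 24 h (2.33% of the 172), beside 7.15% of all IDs in the same fit. They are named after their values were seen. Novel00050 had 225 and 119 RPKM at 12 h and 393 and 266 (24 h), Novel00285 had 23.0 and 13.9 and then 94.5 and 51.0, and Novel01254 had 54.3 and 41.8 and then 92.7 and 79.2. Novel01084 had 48.9 and 68.3 RPKM at 12 h and 10.8 and 22.5 (24 h). In each of these 4, both libraries of 24 h lay on the same side of both of 12 h. The fit that picked them used these same values, so this is a description only. Both libraries of 24 h lay on the same side of both of 12 h in 36 of the 172 (20.9%) and in 36.0% of the locus tags of the same level. The share over all IDs is not given for this count.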

How the data were processed

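Total RNA of inflorescence meristems was sequenced in 10 libraries, 2 for each of 5 times. Per the file headers, the tables deposited by the authors hold gene IDs and library titles with no unit, and the numbers behave as RPKM. Bowtie 0.12.2 and the build mm8, a mouse genome, are listed in the submitters' processing notes with no role. How IDs were counted or filtered was not stated.

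Reads and lengths were recovered by division, and of 203696 values above 0, 100% gave a whole number of reads to within 0.01. Libraries of 1 time shared 0 identical values above 0, and the chi-square between their reads, divided by its degrees of freedom, was 57.0 to 169.8, so counting noise does not cover the differences.

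The test was limma 3.58.1 (R 4.3.3), run on log2(RPKM + 1) of all 17403 IDs with a mean of at least 1 RPKM, a filter that all 172 transcripts passed. Time was the factor of 1 model over the 10 libraries (eBayes with trend and robust moderation), and p-values were adjusted by Benjamini-Hochberg over all IDs within each comparison, at 0.05. Fold changes on this scale understate the change of low IDs. The fit and the recovery were tested on simulated data. Since the reads were recovered and not given as such, they entered limma's voom as an alternative only. Others were a pseudocount of 0.1, no filter, median ratio scaling, removal of a length trend (lowess, span 0.3), the library number as a block, non-robust moderation, the 4 libraries of 2 times alone, leaving out each library, and other limits on level.

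Named are the transcripts of highest mean, those next to the limits, those called or of smallest p in each comparison, those of extreme range, spread or length, and a few named after their values were seen, marked as such. The transcripts and these rules were chosen with earlier results of these data known.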

Additional observations from a re-analysis of the deposited data

How the results depend on the processing

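The number of transcripts called at 12 h against 0 h, 2 in the fit reported, was 0 with no filter, 0 by voom and 1 with median ratio scaling. In a fit to the 4 libraries of 0 and 12 h it was 4 (Novel00301 and Novel00460 added, both higher). For these other fits the share of all IDs called is not given, so the counts were not set against a background. A limit of at least 50 RPKM left out both called transcripts by their level, so its count of 0 at 12 h followed from the limit. Leaving out single libraries gave 0 to 1 at 12 h, lowest (0) without either library of 0 h or of 12 h, 0 to 1 from 6 h to 12 h and 0 to 1 in the F-test. In the last 2, the 1 call was Novel00163, without either library of 24 h. With limits of at least 10 RPKM (307 transcripts) there was 1 call at 6 h, 1 from 12 h to 24 h and 1 in the F-test, beside 1.13%, 1.15% and 1.32% of all IDs. At 12 h this limit gave 3 calls, all lower (Novel00159, Novel00163 and Novel01221), beside 1.29% of all IDs that fell. Of the counts and medians compared, 173 stayed within 1.5 times or within the spread of the value, these 3 calls at 12 h among them. Among 16 changes of named transcripts, 0 turned direction.

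The library numbers of treated times went together (correlations of 0.54 to 0.70 over IDs between the library differences of 2 times). Those of 0 h with treated times went weakly the other way (-0.32 to -0.14). Over the 172 alone these correlations were 0.37 to 0.73 and -0.26 to 0.21. The numbers were therefore not shown to pair 0 h with the treated times. With the replicate block, 0 of the 172 were called at 6 h, 2 at 12 h and 0 at 24 and 48 h, beside 2.02%, 3.02%, 0% and 0% of all IDs. Among the 8 treated libraries alone, added after seeing the data, the block gave 4 calls from 12 h to 24 h, beside 7.15% of all IDs. With the numbers of 0 h crossed, also added later, the block gave 1 call at 6 h, 3 at 12 h, 3 from 12 h to 24 h and 1 in the F-test, beside 4.71%, 5.83%, 6.02% and 5.97% of all IDs. The median change in 1 library, taken against the 0 h library of the other number (added later), turned from -0.11 to 0.16 in library 2 of 6 h and from 0.11 to -0.13 in library 1 of 48 h.

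With 2 libraries per time the median standard error of a change was 0.38 (log2) for the 172, against 0.32 for locus tags of the same level.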
